A study of Mus musculus with 10 samples.

Results

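Sox9, Sox4, Onecut1, Onecut2, Hnf4a, Cebpa, Prox1, Foxa1, Foxa2 and Hhex are transcription factor genes that steer embryonic liver progenitors toward the bile duct or the hepatocyte fate. The 10 genes were taken by name, each by its array probe set with 1 gene symbol, and all 10 were measured among 22180 genes. Sox4 has 2 such probe sets, of which the one with the higher mean over the arrays was used, and the other members have 1 each. By their known roles 4 were placed with the duct fate (Sox9, Sox4, Onecut1 and Onecut2), 3 with the hepatocyte fate (Hnf4a, Cebpa and Prox1) and 3 with both lineages (Foxa1, Foxa2 and Hhex).

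Expression was measured in portal tracts, the liver regions where bile ducts accompany the portal vein and hepatic artery. The tracts were dissected by laser capture at 1 week of age, 12 to 20 tracts to a replicate. The tracts came from 5 samples of genotype Jag1+/-Rfng+/-, for which the labels give no strain, and from 5 control samples of strain C57Bl/6J, whose genotype is labelled only as control. Jag1+/-Rfng+/- mice carry 1 mutant allele of Jag1, the gene of the Notch ligand Jagged1, and 1 of Rfng, the gene of the sugar transferase Radical fringe, which acts on Notch receptors. The labels do not describe either allele. They also do not state that every sample is its own animal, so p-values here reflect sample-to-sample spread, which may be technical.

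In the embryonic liver, progenitors next to the portal vein receive Notch signals from Jagged1 on portal mesenchyme. They switch on SOX9 and form the ductal plate, which is later remodelled into ducts, while progenitors farther away become hepatocytes under HNF4A and C/EBP alpha. Around birth and in the first weeks of life this remodelling is still under way in the mouse.

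The labelled tissue was checked against markers. Alb, the hepatocyte gene for serum albumin, read 12.08 to 12.20 in Jag1+/-Rfng+/- and 12.13 to 12.27 in controls (log2). Epcam, an adhesion gene of duct epithelium, read 4.82 to 6.09 in Jag1+/-Rfng+/- and 5.78 to 7.04 in controls, and Eln, the elastin gene of portal stroma, read 5.64 to 7.76 in Jag1+/-Rfng+/- and 7.24 to 8.78 in controls. The tracts therefore held signal of hepatocytes, duct epithelium and stroma together. Over 1105 olfactory receptor genes, which liver is not known to use, mean levels had a median of 1.85 and a 5th to 95th percentile range of 1.55 to 3.15. The duct markers Cftr and Sctr averaged 1.95 and 2.59 in Jag1+/-Rfng+/- and 2.08 and 2.86 in controls, within that range. All 10 fate factors had means above it. Jag1+/-Rfng+/- replicate 5, whose sample name ends in excl with no meaning given, correlated with the other arrays at 0.956 to 0.963 over all probe sets, against at least 0.969 among the other arrays. It was kept, and values without it are given where it matters.

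Promoter windows of 8 of the 10 members, all but Sox9 and Onecut2, were taken from the RefSeq table (build GRCm38.p6). There were 12 windows in all, each with 250 bases before a transcription start and 50 after it. The 4 windows shown belong to the duct factors Onecut1 and Sox4, which read lower in Jag1+/-Rfng+/-, and to Hnf4a and Foxa2, whose upstream windows hold letters of the site that ONECUT proteins bind. Capitals mark matches, on either strand, to short motifs of the factors themselves and of the Notch effector RBPJ. The ONECUT proteins were given the motif ATCAAT. The motif TGTTTAC stood for the FOXA proteins and ACAAAG for the SOX proteins. The letters searched for RBPJ were TGGGAA. Those for HNF4A were CAAAGTCCA, and those for the C/EBP family were TTGCNNAA. All sequences run 5′ to 3′ on the gene's strand.
Sox4 (chr13:28953650-28953949, minus strand): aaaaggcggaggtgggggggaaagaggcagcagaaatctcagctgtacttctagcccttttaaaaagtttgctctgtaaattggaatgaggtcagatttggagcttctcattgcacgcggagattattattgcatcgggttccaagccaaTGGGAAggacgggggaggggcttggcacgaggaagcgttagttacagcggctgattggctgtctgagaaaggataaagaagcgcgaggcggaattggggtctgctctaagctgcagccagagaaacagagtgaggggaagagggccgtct
Onecut1 (chr9:74861671-74861970, plus strand): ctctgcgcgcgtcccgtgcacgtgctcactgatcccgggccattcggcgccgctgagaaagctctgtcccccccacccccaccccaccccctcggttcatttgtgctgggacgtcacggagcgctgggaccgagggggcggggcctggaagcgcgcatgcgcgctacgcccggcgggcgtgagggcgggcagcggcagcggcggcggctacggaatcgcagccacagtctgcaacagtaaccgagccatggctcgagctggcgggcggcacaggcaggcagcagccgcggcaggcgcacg
Hnf4a upstream start (chr2:163506607-163506906, plus strand): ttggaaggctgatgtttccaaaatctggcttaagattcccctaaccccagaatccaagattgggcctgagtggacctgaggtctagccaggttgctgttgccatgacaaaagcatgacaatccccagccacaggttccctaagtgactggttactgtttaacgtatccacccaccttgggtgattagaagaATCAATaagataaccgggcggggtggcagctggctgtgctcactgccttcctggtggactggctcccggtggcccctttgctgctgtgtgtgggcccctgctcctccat
Foxa2 upstream start (chr2:148046920-148047219, minus strand): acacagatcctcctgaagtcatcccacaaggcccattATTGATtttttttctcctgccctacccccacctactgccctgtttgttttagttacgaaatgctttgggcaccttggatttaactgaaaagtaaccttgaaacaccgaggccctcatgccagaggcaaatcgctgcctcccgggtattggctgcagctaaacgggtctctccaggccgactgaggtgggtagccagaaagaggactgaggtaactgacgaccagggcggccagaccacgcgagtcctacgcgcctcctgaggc

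The Sox4 window holds TGGGAA, letters of the RBPJ motif, starting 100 bases before the start site, and 25.6% of all 32851 windows of this length hold that motif. The Hnf4a upstream window holds ATCAAT 59 bases before the start, and the Foxa2 upstream window holds its reverse complement ATTGAT 213 bases before it. The ONECUT motif occurs in 7.54% of all windows. The Onecut1 window holds none of the 6 motifs. Among windows not shown, that of Foxa1 holds a FOXA match, in 3.65% of all windows, and overlapping it on either side a SOX match, in 18.7% of all windows. The Foxa1 window holds further SOX matches near its start site. A window of Prox1 holds an RBPJ and a SOX match, and another Foxa2 window holds SOX matches. The HNF4 and C/EBP motifs, in 0.475% and 10.8% of all windows, were found in none of the 12. A match is a description of letters, and the arrays do not measure binding.

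All 4 duct factors had lower means in Jag1+/-Rfng+/- portal tracts than in controls, Onecut2 by only 1.02-fold. The factors of hepatocyte fate read near the control level. Sox9, Sox4 and Onecut1 were 1.91-fold, 1.45-fold and 1.40-fold lower, while Onecut2, Hnf4a, Cebpa and Prox1 differed by 1.10-fold or less. In limma's fit over all 22180 genes 0 of the 10 members passed a Benjamini-Hochberg adjusted p of 0.05 (2 genes, 0.00902% of those tested, did). At an unadjusted p under 0.05, 3 members were called, all lower. Among all genes 6.76% were called at that threshold, 840 genes (3.79%) lower and 660 (2.98%) higher. The difference lay below 0 for 8 of the 10 members, against 51.5% of all genes. The median difference was -0.51 log2 for the 4 duct factors, 0.06 for the 3 hepatocyte factors and -0.24 for the 3 factors of both lineages, and -0.01 for all genes tested.

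**Figure D1:**
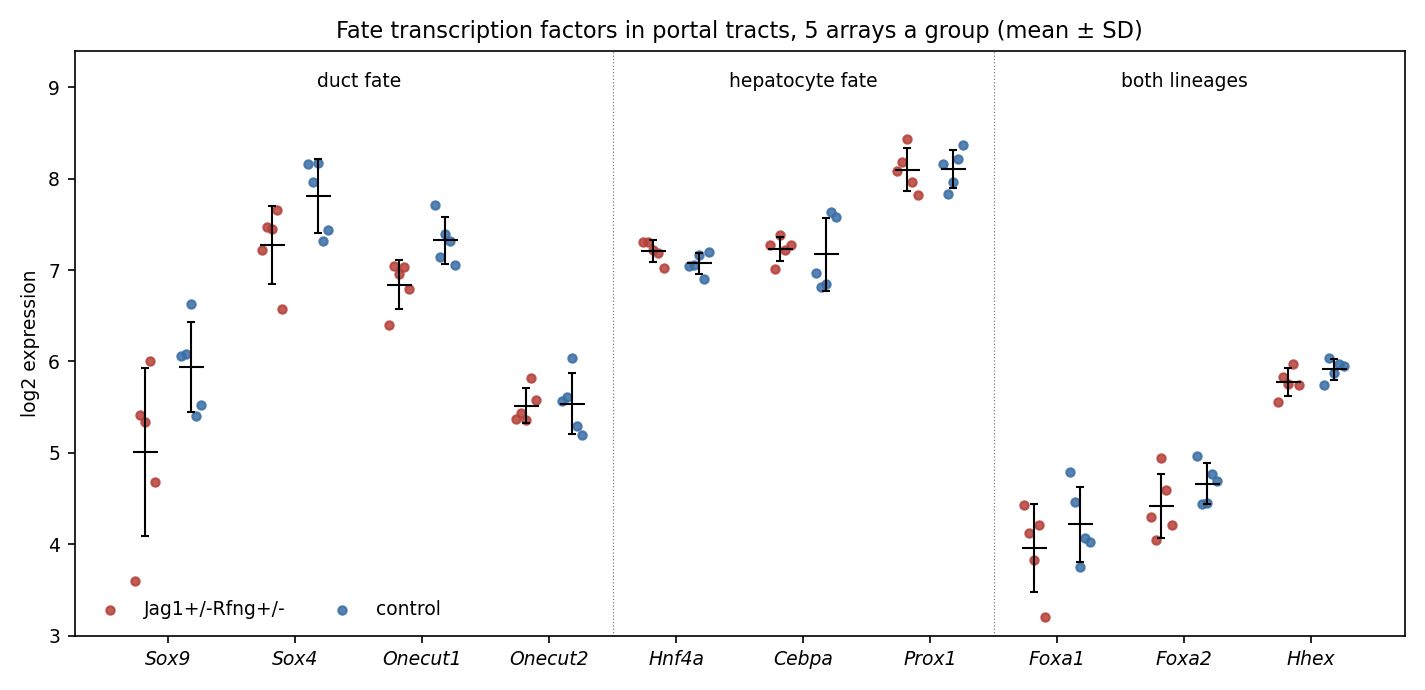
Expression of the 10 fate factors on each array (log2), with Jag1+/-Rfng+/- in red left of control in blue, points for arrays and bars for mean and SD (n = 5 each). The groups lie apart for Onecut1 and overlap for the other 9 genes.

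Onecut1, which encodes the duct and hepatocyte regulator HNF6, was the member whose groups did not overlap. It is needed in the mouse for duct formation from the ductal plate and for the gallbladder. Onecut1 (probe set 17519357, chromosome 9) read 6.39, 7.04, 6.95, 7.03 and 6.79 in Jag1+/-Rfng+/- replicates 1 to 5, against 7.72, 7.14, 7.39, 7.32 and 7.06 in control replicates 1 to 5. The highest Jag1+/-Rfng+/- value, 7.04, lay just under the lowest control value, 7.06. The means were 6.84 ± 0.27 in Jag1+/-Rfng+/- and 7.32 ± 0.26 in controls (SD, n = 5 each), a difference of -0.48 ± 0.16 log2 (SE; 95% interval -0.82 to -0.14). An exact permutation test gave p = 0.00794, two-sided, which is the lowest value this design allows, and limma's adjusted p was 0.572. Groups lay apart in this direction for 170 genes, 0.766% of those tested, and in the other direction for 0.618%. Without any single array the difference stayed between -0.55 and -0.37, with unadjusted limma p of 0.00618 to 0.0257.

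Sox9, the earliest known marker of ductal plate cells and a target of Notch signalling, showed the widest spread. Sox9 (probe set 17257946, chromosome 11) read 3.60, 5.41, 5.34, 6.01 and 4.69 in Jag1+/-Rfng+/- replicates 1 to 5, against 6.06, 6.08, 6.62, 5.41 and 5.53 in control replicates 1 to 5. Jag1+/-Rfng+/- replicates 1 and 5 were lowest. Replicate 4 lay among the controls, and replicate 2 lay just above the lowest control. The means were 5.01 ± 0.92 in Jag1+/-Rfng+/- and 5.94 ± 0.49 in controls (SD, n = 5 each), a difference of -0.93 ± 0.39 log2 (SE; 95% interval -1.78 to -0.08). The exact permutation p was 0.0476, two-sided, and limma's adjusted p was 0.693. The within-group SD of Sox9, 0.73, was larger than that of 98.6% of genes. Without Jag1+/-Rfng+/- replicate 1, the array at 3.60, the difference was -0.58, and without replicate 4 it was -1.18.

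Sox4, an SRY-box factor that acts with SOX9 in duct morphogenesis in the mouse, read lower on both of its probe sets. Sox4 (probe set 17286231, chromosome 13) read 7.22, 7.47, 7.45, 7.66 and 6.57 in Jag1+/-Rfng+/- replicates 1 to 5, against 8.16, 7.96, 8.17, 7.32 and 7.44 in control replicates 1 to 5. Controls 1 to 3 lay above every Jag1+/-Rfng+/- array, and controls 4 and 5 lay among them. The means were 7.27 ± 0.42 in Jag1+/-Rfng+/- and 7.81 ± 0.40 in controls (SD, n = 5 each), a difference of -0.54 ± 0.23 log2 (SE; exact permutation p = 0.0873, two-sided; limma adjusted p = 0.697). The dimmer probe set (17291525) averaged 6.29 ± 0.39 in Jag1+/-Rfng+/- and 6.78 ± 0.41 in controls, a difference of -0.49 (n = 5 each; exact permutation p = 0.0873). Without Jag1+/-Rfng+/- replicate 5 the Sox4 difference was -0.36.

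Onecut2 encodes a paralog of HNF6 with overlapping functions in the mouse liver. Onecut2 (probe set 17351273, chromosome 18) read 5.37, 5.44, 5.36, 5.82 and 5.58 in Jag1+/-Rfng+/- replicates 1 to 5, against 5.57, 5.61, 6.03, 5.29 and 5.19 in control replicates 1 to 5. The Jag1+/-Rfng+/- range lay inside the control range. The difference was -0.03 ± 0.16 log2 (SE; limma adjusted p = 0.987), and its 95% interval spans 0.773-fold to 1.25-fold of the control level. Whether Onecut1 and Onecut2 differ in their response was not tested. The count of members under an unadjusted p of 0.05 rested on single arrays. It was 1, Onecut1, in place of 3 without Jag1+/-Rfng+/- replicate 1 or 5 or without control replicate 1, 2 or 3. It was 4 without Jag1+/-Rfng+/- replicate 3, with Foxa2 added. Of all genes, 6% to 7.11% were called at that threshold with 1 array left out. The sample names carry numbers of unstated meaning, a possible batch, and 1 number occurs in both groups. Among the 4 Jag1+/-Rfng+/- and 3 control arrays that share it, Sox9 differed by -0.68, Sox4 by -0.53 and Onecut1 by -0.33. The count was again 1, Onecut1, with 5.54% of all genes called. Each of the other numbers has 1 array, too few for a value.

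**Figure D2:**
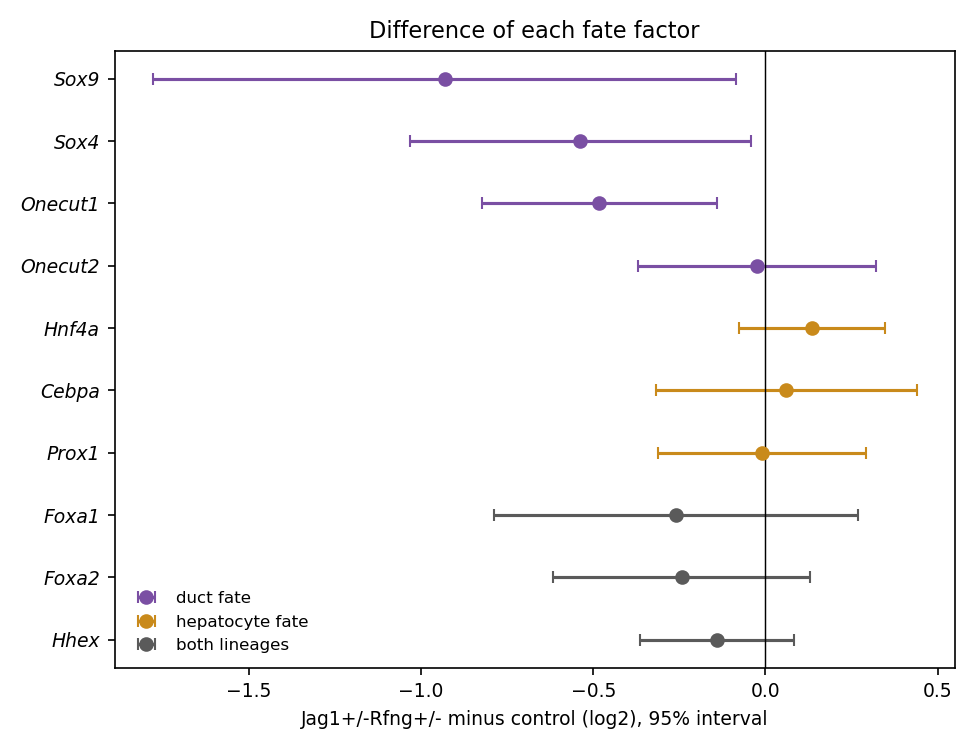
Difference of Jag1+/-Rfng+/- minus control for each of the 10 factors (log2, points) with the 95% interval of limma's fit (bars), coloured by lineage. The intervals of Sox9, Sox4 and Onecut1 lie below 0 and those of the other 7 genes include it.

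The 95% intervals of the 3 factors of hepatocyte fate all included 0. Hnf4a encodes the nuclear receptor HNF4A, a main driver of the hepatocyte programme. Hnf4a (probe set 17379268, chromosome 2) read 7.31, 7.31, 7.22, 7.18 and 7.02 in Jag1+/-Rfng+/- replicates 1 to 5, against 7.04, 7.06, 7.16, 6.90 and 7.20 in control replicates 1 to 5. In Jag1+/-Rfng+/- 4 of 5 arrays lay above the control mean, and the ranges overlapped. The difference was 0.14 ± 0.10 log2 (SE; exact permutation p = 0.119, two-sided; limma adjusted p = 0.841), with a 95% interval of 0.949-fold to 1.27-fold of the control level. Its within-group SD, 0.12, was larger than that of only 8.11% of genes, so Hnf4a was among the steadier transcripts across the arrays of a group. One probe set covers the gene, so products of its upstream and downstream promoters are not told apart.

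Cebpa encodes C/EBP alpha, which favours hepatocyte over duct differentiation. Cebpa (probe set 17476728, chromosome 7) read 7.27, 7.01, 7.38, 7.22 and 7.27 in Jag1+/-Rfng+/- replicates 1 to 5, against 6.97, 6.81, 6.85, 7.63 and 7.58 in control replicates 1 to 5. All 5 Jag1+/-Rfng+/- arrays lay between 7.01 and 7.38, above controls 1 to 3 and below controls 4 and 5. The difference was 0.06 ± 0.17 log2 (SE; limma adjusted p = 0.965), with a 95% interval of 0.802-fold to 1.36-fold. The SD was 0.14 in Jag1+/-Rfng+/- and 0.40 in controls. A difference in spread was not tested.

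Prox1 encodes a homeobox factor that hepatoblasts need to migrate and that later marks hepatocytes and lymphatic endothelium. Prox1 (probe set 17230960, chromosome 1) read 8.08, 8.19, 8.44, 7.96 and 7.82 in Jag1+/-Rfng+/- replicates 1 to 5, against 8.16, 7.84, 7.96, 8.21 and 8.37 in control replicates 1 to 5. The groups covered nearly the same range. The difference was -0.01 ± 0.14 log2 (SE; limma adjusted p = 0.994), with a 95% interval of 0.806-fold to 1.23-fold. Of 5 lymphatic markers 2 read lower and 3 higher, and their mean level spanned 5.27 to 5.42 in Jag1+/-Rfng+/- and 5.18 to 5.51 in controls. Their part in the Prox1 level was not tested.

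The factors of both lineages read slightly lower, within the spread of the arrays. FOXA1 and FOXA2 open liver chromatin early in development, and in the mouse their later loss leads to excess duct growth. Foxa1 (probe set 17281337, chromosome 12) read 4.43, 4.13, 3.83, 4.21 and 3.20 in Jag1+/-Rfng+/- replicates 1 to 5, against 4.79, 4.46, 3.75, 4.07 and 4.02 in control replicates 1 to 5. The groups overlapped, and replicate 5 at 3.20 lay close to the range of olfactory receptor genes. The difference was -0.26 ± 0.24 log2 (SE; limma adjusted p = 0.871), and it was -0.07 without replicate 5 and -0.12 without control replicate 1.

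Foxa2 (probe set 17392561, chromosome 2) read 4.30, 4.04, 4.94, 4.59 and 4.21 in Jag1+/-Rfng+/- replicates 1 to 5, against 4.96, 4.44, 4.45, 4.77 and 4.69 in control replicates 1 to 5. In Jag1+/-Rfng+/- 3 arrays lay below all controls and replicate 3 was close to the highest control. The difference was -0.24 ± 0.17 log2 (SE; limma adjusted p = 0.836). It was -0.15 without Jag1+/-Rfng+/- replicate 2, and -0.37 without replicate 3, with an unadjusted limma p of 0.0281 there. Hhex, a homeobox gene needed for liver budding and for bile duct morphogenesis in the mouse, is also used by endothelium. Hhex (probe set 17359045, chromosome 19) read 5.56, 5.83, 5.76, 5.97 and 5.75 in Jag1+/-Rfng+/- replicates 1 to 5, against 5.74, 6.04, 5.88, 5.98 and 5.95 in control replicates 1 to 5. The groups overlapped, and the difference was -0.14 ± 0.10 log2 (SE; limma adjusted p = 0.844). Without Jag1+/-Rfng+/- replicate 1 it was -0.09. Of 8 blood endothelial markers 4 read lower and 4 higher, and their mean spanned 6.53 to 6.96 in Jag1+/-Rfng+/- and 6.53 to 6.79 in controls.

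**Figure D3:**
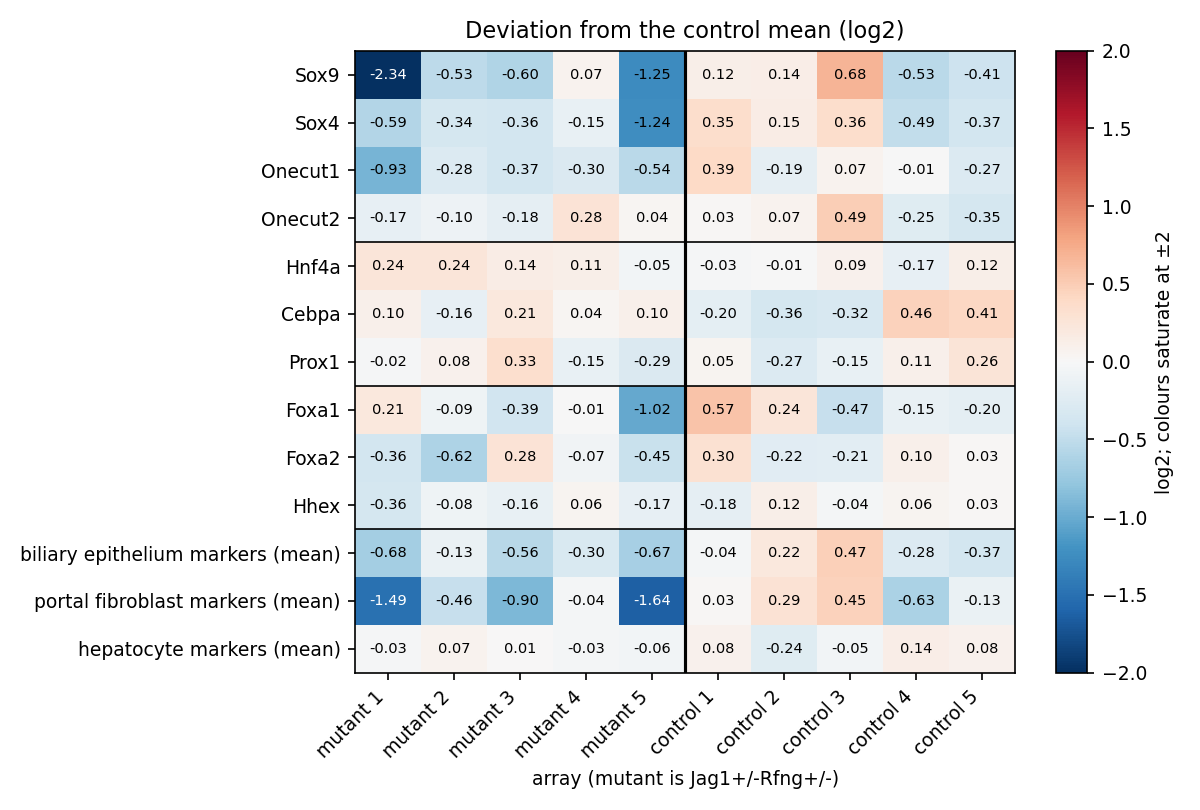
Deviation of each factor from its control mean on every array (log2), with the 5 Jag1+/-Rfng+/- arrays left of the 5 controls, and below them the mean deviation of 3 marker lists. On Jag1+/-Rfng+/- replicates 1 and 5 Sox9 read -2.34 and -1.25, and the portal fibroblast markers averaged -1.49 and -1.64.

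Sox9 and Sox4 moved across arrays with markers of duct epithelium and of portal fibroblasts. Over all 10 arrays relations of Onecut1 and Onecut2 were weaker by Pearson's r, but not in every alternative. In bulk tracts, fewer cells of a type and less RNA per cell cannot be told apart. Of 13 measured biliary epithelial markers 10 read lower and 3 higher, and their mean level spanned 4.67 to 5.22 in Jag1+/-Rfng+/- and 4.98 to 5.83 in controls. The 3 higher were the tight junction genes Cldn3, Cldn4 and Cldn7, by 0.30, 0.52 and 0.80 log2. The biliary mean thus combines genes that differed in opposite directions, and it includes Cftr and Sctr, which averaged within the olfactory range. Of 11 portal fibroblast markers 10 read lower, and their mean spanned 4.77 to 6.36 in Jag1+/-Rfng+/- and 5.77 to 6.86 in controls. The 17 hepatocyte markers had a mean of 10.37 to 10.51 in Jag1+/-Rfng+/- and 10.19 to 10.58 in controls, with 11 lower and 6 higher.

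Over the 10 arrays Sox9 correlated with the mean of the biliary markers at Pearson r = 0.83 (permutation p = 0.00278, adjusted 0.0208) and Spearman rho = 0.90 (permutation p = 0.00116, adjusted 0.0116). Sox4 did so at r = 0.83 (permutation p = 0.00235, adjusted 0.0208) and rho = 0.87 (permutation p = 0.00246, adjusted 0.0148). These adjustments cover 30 relations, of the 10 members with 3 marker lists, of which the fibroblast list was added after the data were seen. Without control replicates 2 and 3, the 2 arrays farthest from the median marker level, r was 0.78 for Sox9 and 0.77 for Sox4, and the adjusted exact permutation p was 0.0972 for both. With group means removed r was 0.73 and 0.74, and the adjusted p of an exact permutation within groups was 0.0552 and 0.131. Each group has 5 arrays, too few for an r of its own. Onecut1 gave r = 0.70 with the biliary markers (permutation p = 0.0248, adjusted 0.093) and rho = 0.87 (permutation p = 0.00237, adjusted 0.0148). Its r was 0.85 without the 2 farthest arrays (adjusted exact permutation p = 0.0554) and 0.44 with group means removed (adjusted 0.447). Onecut2 gave r = 0.62 (permutation p = 0.055, adjusted 0.165) and rho = 0.49 (permutation p = 0.157, adjusted 0.314). Its r was 0.15 without the 2 farthest arrays (adjusted exact permutation p = 0.773) and 0.78 with group means removed (adjusted 0.0941).

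With the portal fibroblast markers, Sox9 gave r = 0.91 (permutation p = 0.00012, adjusted 0.00255) and rho = 0.99 (permutation p = 1e-05, the smallest that 100000 resamples can give, adjusted 0.0003). Sox4 gave r = 0.89 (permutation p = 0.00017, adjusted 0.00255) and rho = 0.93 (permutation p = 0.00025, adjusted 0.00375). Without Jag1+/-Rfng+/- replicates 1 and 5, the farthest arrays, r was 0.91 for Sox9 (adjusted exact permutation p = 0.0268) and 0.82 for Sox4 (adjusted 0.0972). With group means removed r was 0.86 and 0.83 (adjusted exact permutation p = 0.0552 for both). Onecut1 gave r = 0.73 (permutation p = 0.0137, adjusted 0.0823) and rho = 0.78 (permutation p = 0.0102, adjusted 0.0402), and r = 0.41 without the 2 farthest arrays. Onecut2 gave r = 0.47 (permutation p = 0.169, adjusted 0.337) and rho = 0.53 (permutation p = 0.125, adjusted 0.288). Its r was 0.71 without the 2 farthest arrays (adjusted exact permutation p = 0.203) and 0.59 with group means removed (adjusted 0.182).

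**Figure D4:**
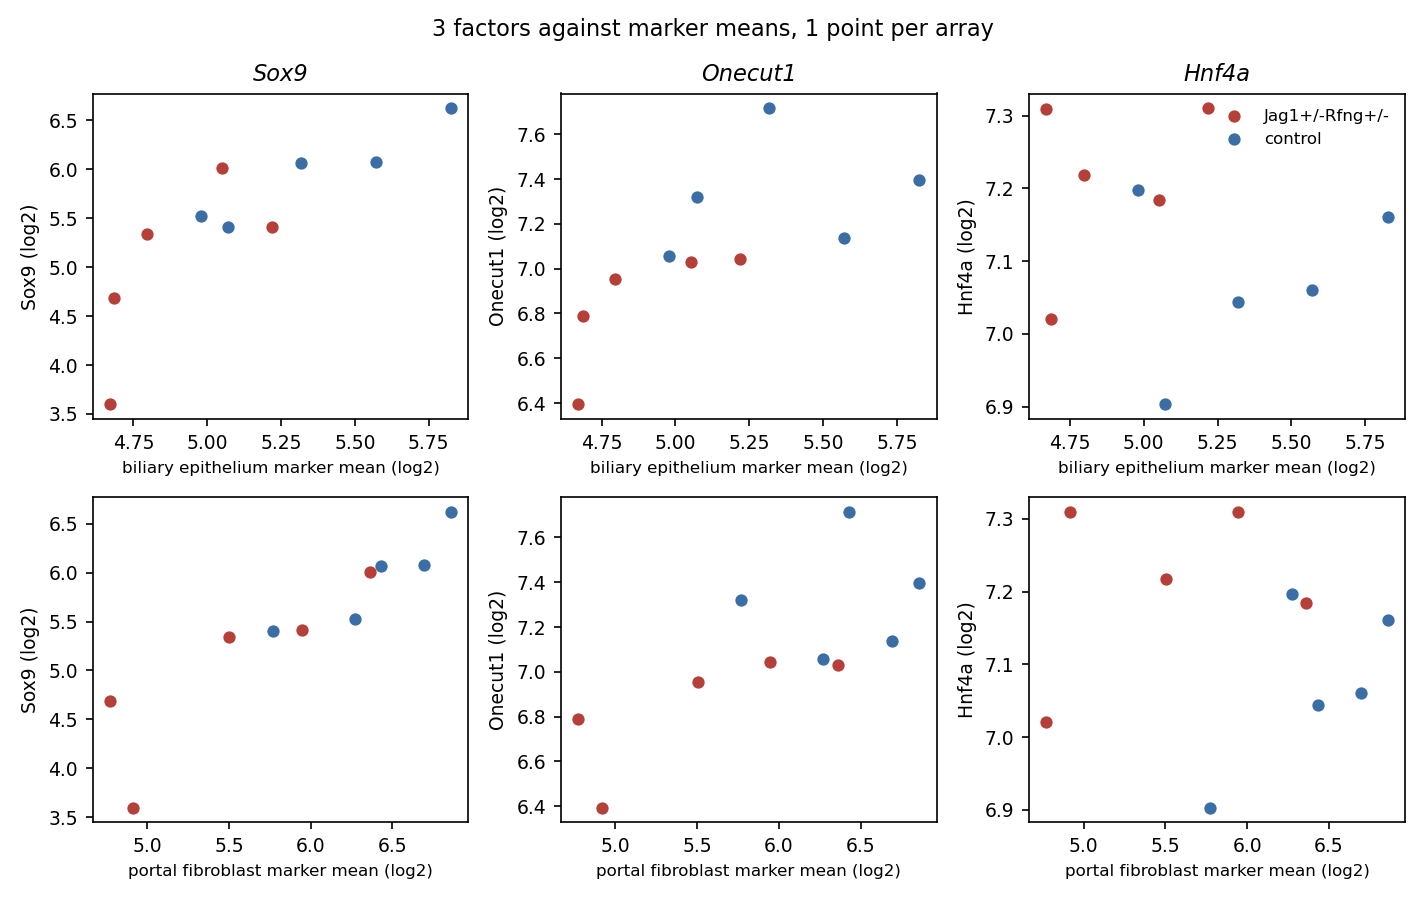
Levels of Sox9, Onecut1 and Hnf4a (log2, vertical axes) against the mean of the biliary markers (top) and the portal fibroblast markers (bottom) on each array, Jag1+/-Rfng+/- in red and control in blue. Sox9 follows both means (r = 0.83 and 0.91 over 10 arrays), and Hnf4a follows neither (r = -0.16 and -0.09).

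With the biliary marker mean as a covariate in limma the differences were -0.09 for Sox9, -0.06 for Sox4 and -0.30 for Onecut1, and with the fibroblast mean they were 0.09, 0.02 and -0.27. Under either covariate 0 members had an unadjusted p under 0.05, against 8.43% of all genes with the biliary mean and 7.1% with the fibroblast mean. With the hepatocyte marker mean the 3 differences were -0.94, -0.54 and -0.48, close to the values without it. The biliary and fibroblast means themselves read lower in Jag1+/-Rfng+/-, by -0.47 and -0.91 log2. These fits therefore cannot separate cell content from expression per cell. The part of cell content in the lower duct factors was not tested. Among the hepatocyte factors, Prox1 gave r = 0.71 with the hepatocyte markers (permutation p = 0.0177, adjusted 0.0884; rho = 0.84, permutation p = 0.00397, adjusted 0.0198). Cebpa gave r = -0.70 with the biliary markers (permutation p = 0.0232, adjusted 0.093) and rho = -0.70 (permutation p = 0.0305, adjusted 0.102). Its r was -0.38 without control replicates 2 and 3 (adjusted exact permutation p = 0.647) and -0.84 with group means removed (adjusted 0.0552). Hnf4a gave r of -0.16 with the biliary and -0.03 with the hepatocyte markers. Of the duct factors, Onecut2 ran against the hepatocyte markers by rank, with rho = -0.78 (permutation p = 0.0107, adjusted 0.0402) and r = -0.49 (permutation p = 0.149, adjusted 0.325).

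Of the 12 measured duct regulators beyond the members, 8 read lower and 4 higher, with a median difference of -0.12 log2. At an unadjusted p under 0.05, 2 were lower and 1 higher, and 0 passed adjustment. Ehf, an epithelial ETS factor, averaged 2.82 ± 0.29 in Jag1+/-Rfng+/- and 4.68 ± 0.77 in controls (SD, n = 5 each; limma adjusted p = 0.108), and its Jag1+/-Rfng+/- mean lies within the range of olfactory receptor genes, so the size of the difference is not bounded. Klf5, a Kruppel-like factor of epithelia, averaged 4.74 ± 0.26 in Jag1+/-Rfng+/- and 5.45 ± 0.33 in controls (n = 5 each; limma adjusted p = 0.332). Elf3, another ETS factor, averaged 3.29 ± 0.32 in Jag1+/-Rfng+/- and 2.89 ± 0.19 in controls (n = 5 each; limma adjusted p = 0.66), the control mean within the olfactory range. The Hippo pathway genes Yap1 and Wwtr1 differed by -0.13 and 0.04, and Glis3, a factor of tubules, by -0.32. Grhl2, an epithelial factor, averaged 2.87 in Jag1+/-Rfng+/- and 3.19 in controls, the Jag1+/-Rfng+/- mean within the olfactory range and the control mean just above it. These 4 genes were named after their values were seen.

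Of the 16 measured hepatocyte factors beyond the members, 7 read lower and 9 higher, with a median difference of 0.01 log2. Cebpb, a paralog of Cebpa induced by injury and cytokines, averaged 5.16 ± 0.30 in Jag1+/-Rfng+/- and 4.75 ± 0.23 in controls (SD, n = 5 each; limma adjusted p = 0.631), the 1 of these genes under an unadjusted p of 0.05. Rxra, the partner of many nuclear receptors, and Gata6, a zinc finger factor, differed by 0.19 and -0.42 (limma adjusted p = 0.75 and 0.772). Of the 11 paralogs of the members, which share Cebpb and Foxa3 with the list before, 5 read lower and 6 higher, with a median difference of 0.00. Cebpb and Cebpd differed by 0.41 each (limma adjusted p = 0.631 and 0.712), and Onecut3, the third ONECUT gene, by 0.17 (limma adjusted p = 0.777). Cebpa, described above, lay at 0.06.

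The list of Notch inputs also holds the Notch targets Hes1, Hey1 and Heyl. In it 8 of 8 genes read lower, with a median difference of -0.32 log2. An unadjusted p under 0.05 was reached by 4, Jag1, Rfng, Hey1 and Heyl, and not by Notch1, Notch2, Rbpj or Hes1. Of all genes, 51.5% read lower and 3.79% were lower at that threshold. Both counts of the list include the targeted genes, Jag1 at -1.33 and Rfng at -0.46 (limma adjusted p = 0.559 and 0.416). Hey1, a Notch target related to the HES genes, averaged 4.75 ± 0.42 in Jag1+/-Rfng+/- and 5.50 ± 0.45 in controls (SD, n = 5 each; limma adjusted p = 0.564). Notch2, the receptor used by duct cells, and Rbpj, its nuclear partner, differed by -0.10 and -0.11. Heyl, Hes1, Notch1, Notch2 and Rbpj were named after their values were seen.

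Among biliary markers, Muc1, Tspan8 and Prom1, genes of the apical membrane, differed by -2.08, -1.42 and -0.71 log2 (limma adjusted p = 0.0745, 0.332 and 0.502), and Cldn7, a tight junction gene, by 0.80 (0.383). Muc1 read 3.12 to 3.63 in Jag1+/-Rfng+/-, near the upper end of the olfactory range at 3.15. Of the 13 measured genes 6 were lower and 3 higher at an unadjusted p under 0.05, with a median difference of -0.52. Of the 17 hepatocyte markers 0 had an unadjusted p under 0.05, with a median difference of -0.03. Their genes with the lowest p were G6pc, the glucose-6-phosphatase gene, at -0.36, Cyp8b1, of bile acid synthesis, at 0.42, Fgb, of fibrinogen, at -0.11, and F2, of prothrombin, at 0.09 (limma adjusted p between 0.772 and 0.868). Hepatoblast markers, of which 4 were measured, ranged from -0.33 for Dlk1 to 0.03 for Igf2, with Afp at -0.02. Of other cell types in the tracts, smooth muscle markers read lower for 3 of 4 genes (median -0.29). Their mean level was 7.15 on Jag1+/-Rfng+/- replicate 4 and 4.72 to 5.45 on the other Jag1+/-Rfng+/- arrays, against 4.93 to 6.47 in controls. The difference of means, -0.26, was -0.65 without that array and -0.04 without Jag1+/-Rfng+/- replicate 1. It was -0.16, -0.11 and -0.49 without control replicates 2, 3 and 4. Erythroid markers read higher for 3 of 3 genes (median 0.49), with a mean level of 8.10 on Jag1+/-Rfng+/- replicate 5, the array named excl, and 5.09 to 5.84 on the other Jag1+/-Rfng+/- arrays, against 4.81 to 5.82 in controls. Without that array the difference of means, 0.54, was -0.01. Macrophage markers read higher for 4 of 5 genes (median 0.30), and their difference of means, 0.22, was 0.04 without Jag1+/-Rfng+/- replicate 1, 0.41 without replicate 5 and 0.12 without control replicate 3. B-cell progenitors, which also use Sox4, had 2 markers lower and 2 higher (-0.24), and their mean level spanned 3.54 to 4.40 in Jag1+/-Rfng+/- and 3.64 to 4.54 in controls.

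**Figure D5:**
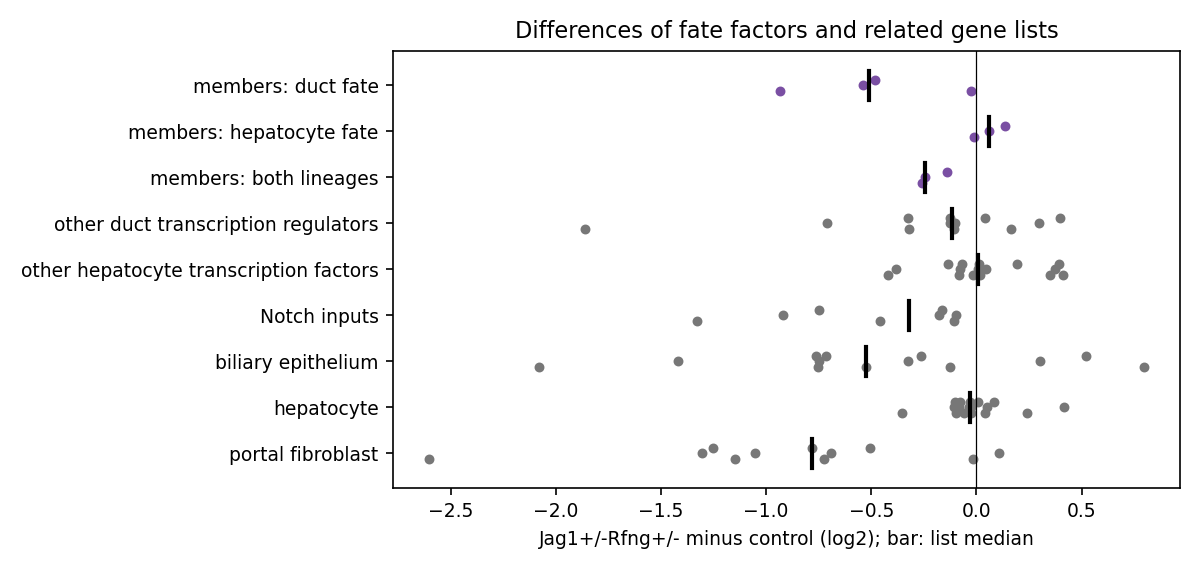
Differences of Jag1+/-Rfng+/- minus control (log2, 1 point per gene, bar at the median) for the members by lineage and for 6 related lists. Medians are -0.51 for the duct-fate members, -0.32 for Notch inputs, -0.52 for biliary and -0.78 for portal fibroblast markers. The other duct regulators have a median of -0.12, with 8 genes lower and 4 higher. Hepatocyte factors and markers lie around 0.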

How the data were processed

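RNA of 5 Jag1+/-Rfng+/- and 5 control samples was hybridized to 10 single-colour arrays, and the titles gave the groups. The authors deposited log2 values of 33649 probe sets, between 1.08 and 12.47, and RMA and Partek 6.6 are named for them, per the submitters' processing notes, with no role or order. RMA compresses the folds of dim genes. Arrays have no read depth, and their number limits the precision. Scanner files were not used here. The platform annotation gave 1 gene symbol for 23521 probe sets, several for 1814 and none for 8314. The probe set with 1 symbol and the highest mean was used per gene, with no filter on dim genes, and 0 columns belonged to no sample. Chromosomes came from a RefSeq table of assembly GRCm38.p6 matched by Entrez identifier.

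The comparison used lmFit and eBayes of limma 3.58.1 (R 4.3.3), two-sided, with no covariate and with Benjamini-Hochberg adjustment over all genes, and was tested on simulated data. Single members were also compared by an exact permutation test over all 252 splits. Correlations with marker means used 100000 resamples. The members, the 17 lists with 141 entries, 131 of them measured, and the tests were chosen with earlier results of these data known. Genes named are the members, the 3 lowest unadjusted p of the lists of regulators, paralogs and Notch inputs, the 4 lowest of the biliary and hepatocyte markers, and the 3 genes with the most similar pattern to Sox9, Onecut1 and Hnf4a. Other genes named, such as those of the tissue check, were chosen after their values were seen. As alternatives, single arrays were left out, the replicate number was taken as a block, and the fit was repeated on the arrays that share a sample-name number with and without the one named excl, after quantile normalization or median centring, and with a level filter, probe set means, trend and robust eBayes, array weights or marker covariates.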

Additional observations from a re-analysis of the deposited data

How the results depend on the processing

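Under 22 alternatives 0 members passed the adjusted threshold, with adjusted p of 0.494 to 0.913 for Onecut1, 0.513 to 0.966 for Sox9 and 0.742 to 0.929 for Hnf4a. Onecut1, Foxa1, Foxa2 and Hhex stayed lower and Hnf4a higher in Jag1+/-Rfng+/- under all of them. The count of members at an unadjusted p under 0.05, 3, ranged from 1 to 4 when single arrays were left out. In those fits 6% to 7.11% of all genes were called. The member count was 1 among the 4 Jag1+/-Rfng+/- and 3 control arrays that share a sample-name number, with 5.54% of all genes called. It was 0 among them without the array named excl, with 5.48% of all genes called. There Sox9, Sox4 and Onecut1 differed by -0.45, -0.29 and -0.28. The count was also 0 with the biliary or the portal fibroblast covariate, where 8.43% and 7.1% of all genes were called.

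Signs changed as follows. With the fibroblast covariate the difference was 0.0896 for Sox9, 0.0153 for Sox4, 0.229 for Onecut2 and -0.213 for Cebpa. With the biliary covariate it was 0.302 for Onecut2 and -0.335 for Cebpa. Leaving out single arrays gave -0.112 to 0.0986 for Onecut2, -0.0287 to 0.176 for Cebpa and -0.0945 to 0.0602 for Prox1. Prox1 was 0.0995 and 0.193 among the arrays that share a number, with and without the one named excl, 0.031 after quantile normalization, 0.0600 with array weights and 0.00392 with the hepatocyte covariate. The causes were not tested.

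With the replicate number as a block, Onecut1 differed by -0.48 (unadjusted p = 0.0285 in limma's fit across all genes), the count stayed at 3, and the adjusted count at 0. Of all genes 6.58% had an unadjusted p under 0.05 there. Deviations of arrays with the same replicate number correlated at -0.23 to 0.06. Arrays of unlike number were not compared, so whether the numbers pair the samples was not settled. Of the 20 relations planned with hepatocyte or biliary markers, 2 passed adjustment by Pearson's r and 5 by Spearman's rho. By Pearson's r, 0 passed with group means removed and 0 without the 2 farthest arrays.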

Other observations

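Within the controls, Sox9, Sox4 and Onecut2 split the arrays in the opposite way to Cebpa. Control replicates 4 and 5 had the lowest Sox9 (5.41 and 5.53), Sox4 (7.32 and 7.44) and Onecut2 (5.29 and 5.19) of the 5 controls and the highest Cebpa (7.63 and 7.58). Onecut1 did not follow this split, with 7.32 on control replicate 4 and 7.14 on control replicate 2. Control replicates 1 to 3 had Sox9 of 6.06 to 6.62 and Cebpa of 6.81 to 6.97. The biliary markers on controls 4 and 5 averaged -0.28 and -0.37 relative to the control mean, against -0.04 to 0.47 on controls 1 to 3. The pattern was noticed in the data and was not tested.

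The genes whose deviations from their group means were most like those of Sox9 over the 10 arrays, among 10379 genes above the median level, were Fstl1 (r = 0.98), Lama2 (r = 0.97) and Ptprs (r = 0.97). They differed between Jag1+/-Rfng+/- and controls by -0.41, -1.21 and -0.30 log2. For Onecut1 they were Men1 (r = 0.97), B3gat1 (r = 0.97) and Slc39a5 (r = 0.94), which differed by -0.22, 0.05 and -0.01. For Hnf4a they were Cog2 (r = 0.97), Arhgap27os3 (r = 0.94) and Cnnm4 (r = 0.91), which differed by -0.20, 0.12 and -0.04. These are descriptions without a test, picked as the highest of many values.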
